A study of Homo sapiens with 4 samples.

Results

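RNA polymerase II (Pol II) peaks at the starts of long non-coding RNA (lncRNA) genes were examined in SK-OV-3, a widely used line of human ovarian cancer cells. A peak belonged to this set when its midpoint lay within 1 kb of the annotated start of a lncRNA gene and more than 2 kb from the start of every protein-coding gene (GENCODE release 44, build GRCh38). Of 18237 peaks on chromosomes 1 to 22 and X, 778 met this rule, which were 171 of 3916 in control cells and 607 of 14321 in RRN3-silenced cells, and these are called members. The start of the lncRNA nearest the midpoint lay within the span of a protein-coding gene, on either strand, for 71 and 278 of them (called inside below), and outside every such span for 100 and 329 (called outside).

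The study asked whether silencing RRN3, which lets RNA polymerase I begin transcription of ribosomal RNA genes, changed where Pol II sits along genes. Chromatin was immunoprecipitated with a Pol II antibody and sequenced (ChIP-seq) from SK-OV-3 cells with a stably expressed hairpin RNA. The hairpin targeted RRN3 in the shRRN3 cells and LacZ, a bacterial gene that these cells lack, in the shLacZ controls. Each hairpin had 1 Pol II library, given as a list of peaks, and 1 input library that was not analysed here. Which of the study's RRN3 hairpins was used for ChIP-seq is not given in the sources used here. With 1 library per hairpin, the lists give no replicate spread to judge a difference by, so no p-value was computed. The 95% intervals below cover counting error only, treat neighbouring peaks as independent and compare these libraries, not the conditions. The lists hold no read counts, so their depth is unknown. The only measure of peak strength is the score the authors deposited with each peak, which depends on depth, so scores are also given as a percentile among the peaks of the same list. A percentile in turn depends on how many weaker peaks its list holds, so it is not comparable between the lists either.

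The label of an epithelial line was checked at the starts of marker genes. PAX8, a transcription factor of the Mullerian lineage, had a start peak in shLacZ, and PAX8, EPCAM, KRT8 and KRT18 had one in shRRN3, out of 9 epithelial and Mullerian markers, so in shLacZ the other 8 showed none. None of 4 leukocyte, 3 endothelial or 3 fibroblast markers had one in either list. RRN3 and the 2 kb on each side of it held 0 peaks in both lists, so these lists offer no check of the silencing.

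LncRNAs are transcripts that are not translated into protein, and most are made by Pol II, capped and spliced as messenger RNAs are. Some act as RNAs, as NEAT1 does in building nuclear paraspeckles, some are hosts that release small nucleolar RNAs or microRNAs when processed, and for many the act of transcription is all that is known. Their starts often lie on the opposite strand of another gene, at enhancers or just past the end of a gene, so that a Pol II peak at a lncRNA start may belong to more than one annotated unit. Pol II ChIP-seq has no strand and cannot say which of them the polymerase was transcribing.

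The lncRNA starts with the highest scores in both lists show this range of settings, so the 200 bases centred on the midpoint of the shRRN3 peak are printed for 4 of the top 5 outside and the top 3 inside, ranked by the mean of the percentiles in the lists. Each is given 5′ to 3′ on the strand of the lncRNA, from the GRCh38 genome. Capitals mark words searched on both strands. These were the GC box word GGGCGG, the CCAAT box word CCAAT, the TATA box word TATAAA, the AP-1 word TGANTCA and the octamer word ATTTGCAT. The outside set is ENSG00000270117, NEAT1, ENSG00000285646 and SNHG29, followed by MIR181A2HG, ENSG00000290039 and CLASP1-AS1 inside.
ENSG00000270117 (chr11:65499032-65499231, minus strand): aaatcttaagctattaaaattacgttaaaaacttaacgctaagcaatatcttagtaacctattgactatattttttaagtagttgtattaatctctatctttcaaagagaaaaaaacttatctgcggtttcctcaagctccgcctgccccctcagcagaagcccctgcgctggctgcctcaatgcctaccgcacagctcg
NEAT1 (chr11:65423433-65423632, plus strand): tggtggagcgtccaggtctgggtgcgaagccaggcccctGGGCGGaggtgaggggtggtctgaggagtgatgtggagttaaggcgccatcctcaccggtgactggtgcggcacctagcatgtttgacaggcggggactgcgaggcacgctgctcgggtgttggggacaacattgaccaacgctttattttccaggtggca
ENSG00000285646 (chr1:11908423-11908622, plus strand): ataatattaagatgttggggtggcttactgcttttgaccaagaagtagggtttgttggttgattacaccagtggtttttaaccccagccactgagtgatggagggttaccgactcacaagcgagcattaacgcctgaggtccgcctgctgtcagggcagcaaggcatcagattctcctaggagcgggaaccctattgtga
SNHG29 (chr17:16439140-16439339, plus strand): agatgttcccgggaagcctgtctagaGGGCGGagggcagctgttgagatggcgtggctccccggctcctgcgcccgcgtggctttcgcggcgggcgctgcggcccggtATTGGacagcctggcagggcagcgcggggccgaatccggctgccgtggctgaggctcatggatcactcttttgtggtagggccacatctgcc
MIR181A2HG (chr9:124658912-124659111, plus strand): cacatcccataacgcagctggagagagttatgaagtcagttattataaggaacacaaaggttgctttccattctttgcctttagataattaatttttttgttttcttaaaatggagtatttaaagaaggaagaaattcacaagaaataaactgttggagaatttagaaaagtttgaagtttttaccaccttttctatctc
ENSG00000290039 (chr17:58658984-58659183, minus strand): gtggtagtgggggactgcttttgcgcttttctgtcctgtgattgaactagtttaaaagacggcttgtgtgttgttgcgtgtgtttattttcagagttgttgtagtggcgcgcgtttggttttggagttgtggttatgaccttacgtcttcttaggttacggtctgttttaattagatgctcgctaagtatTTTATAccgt
CLASP1-AS1 (chr2:121530961-121531160, plus strand): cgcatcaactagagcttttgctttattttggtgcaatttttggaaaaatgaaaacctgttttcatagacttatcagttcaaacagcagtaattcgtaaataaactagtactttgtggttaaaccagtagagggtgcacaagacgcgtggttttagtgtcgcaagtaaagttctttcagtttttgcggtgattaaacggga

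NEAT1 and SNHG29 held a GC box and had GC shares of 62.0% and 68.5%, SNHG29 also held a CCAAT box, and ENSG00000290039 held a TATA word. The other 4 windows held none of the 5 words. MIR181A2HG, the highest-scoring inside start in both lists, had the lowest GC share of the 7 at 31.0%. A word is a match of letters in this window and says nothing about the binding of a factor.

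Of all shLacZ peaks, 4.37% were at lncRNA starts (95% interval 3.75% to 5.05%), and of all shRRN3 peaks 4.24% were (3.91% to 4.58%). The shRRN3 list held 3.55 times as many of them (interval 2.99 to 4.23), against 3.66 times over all peaks and 3.30 times over peaks within 1 kb of a protein-coding start. Taking only the top 3916 shRRN3 peaks by score, the same number as in shLacZ, gave a ratio of 1.18 (0.959 to 1.46). The rule left out most peaks near lncRNA starts, because 376 of 547 such peaks in shLacZ (68.7%) and 1157 of 1764 in shRRN3 (65.6%) lay within 2 kb of a protein-coding start. The members nearest to that limit lay 2.20 kb from a coding start in shLacZ and 2.01 kb in shRRN3.

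The nearest lncRNAs of the members were 155 genes in shLacZ and 543 in shRRN3, and 126 genes were common to both. These were 81.3% of the shLacZ genes and 23.2% of the shRRN3 genes, and 29 genes were found in shLacZ alone. Over all peaks, 66.2% in shLacZ and 16.9% in shRRN3 were overlapped by the opposite list, and at coding starts 83.5% and 24.5%. These shares count overlapping peaks and not genes in common, and a gene can be common without overlapping peaks, as MIR378D2HG was. A further lncRNA started within 1 kb of the midpoint for 23 of 171 and 65 of 607 members, and for those the nearest gene is only the closest label. Most of the genes had no name beyond an identifier, 82 in shLacZ (52.9%) and 320 in shRRN3 (58.9%), against 72.3% of the 15427 lncRNA genes whose own start lay more than 2 kb from coding starts (called eligible below). Genes named as antisense to a coding gene made up 15.5% and 15.8%, against 7.80% of eligible genes.

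The widely studied lncRNAs were measured as a list, of which 29 were eligible. Of these 5 had a member peak in shLacZ and 9 in shRRN3, where 1.15% and 3.82% of all eligible lncRNA starts had one. NEAT1, NORAD, TERC and EPB41L4A-AS1 had one in both lists. NORAD, which binds PUMILIO proteins, scored 69.8 in shLacZ (percentile 56.6) and 126 in shRRN3 (percentile 82.0). TERC, the RNA template of telomerase, scored 65.4 in shLacZ (percentile 49.7) and 232 in shRRN3 (percentile 95.6), and its peaks were 1138 bp and 2339 bp wide. Both genes stood higher within the shRRN3 list than within the shLacZ list, as was so for 113 of 140 overlapping pairs of members. The same held for 846 of 1105 pairs at coding starts and 904 of 1253 pairs of peaks away from any start. The shRRN3 list is the longer, so a higher percentile in it does not measure more Pol II at these genes. MALAT1, KCNQ1OT1, CYTOR, SAMMSON and DLEU1 had a member peak in shRRN3 alone, with percentiles from 31.3 for CYTOR to 71.9 for SAMMSON. CASC19 had one in shLacZ alone, at percentile 53.4.

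MALAT1 and NEAT1 are neighbouring nuclear lncRNAs that are among the most abundant transcripts of many cell types, and their loci held the 3 highest-scoring outside members in shLacZ. At NEAT1 the peak near the start scored 619 in shLacZ (percentile 99.1) and 1084 in shRRN3 (percentile 99.8), with midpoints 760 bp and 759 bp into the gene. A weaker shLacZ peak lay 395 bp upstream of the start, with a score of 63.0. Peaks continued along the gene in both lists. Leaving out the upstream peak, the shLacZ peaks covered 6.82 kb of the 22.8 kb gene (30.0%), and the 16 shRRN3 peaks covered 17.3 kb (75.9%).

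MALAT1 (chr11:65497640-65508073, plus strand) showed a different arrangement. The shLacZ list had 4 peaks that covered 80.7% of the gene, with scores of 705 to 1091, but no midpoint within 1 kb of its start. The nearest starts to the outermost peaks were those of 2 lncRNAs on the opposite strand. ENSG00000270117 starts near the beginning of MALAT1, and its peak scored 705 in shLacZ and 1031 in shRRN3. TALAM1, the antisense partner of MALAT1, starts near its end, and its shLacZ peak scored 1091, the highest of any member in that list. In shRRN3 the TALAM1 end of the locus was covered by a 5525 bp peak with a score of 3087, whose midpoint was too far from the TALAM1 start to count, and the member named TALAM1 was a separate 298 bp peak with a score of 60.9. The MALAT1 start itself had a peak in shRRN3 alone, with a score of 84.4 (percentile 60.1) and a midpoint 207 bp upstream. Thus the peaks named for ENSG00000270117 and TALAM1 in shLacZ lay within MALAT1, and their strand is unknown.

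**Figure D1:**
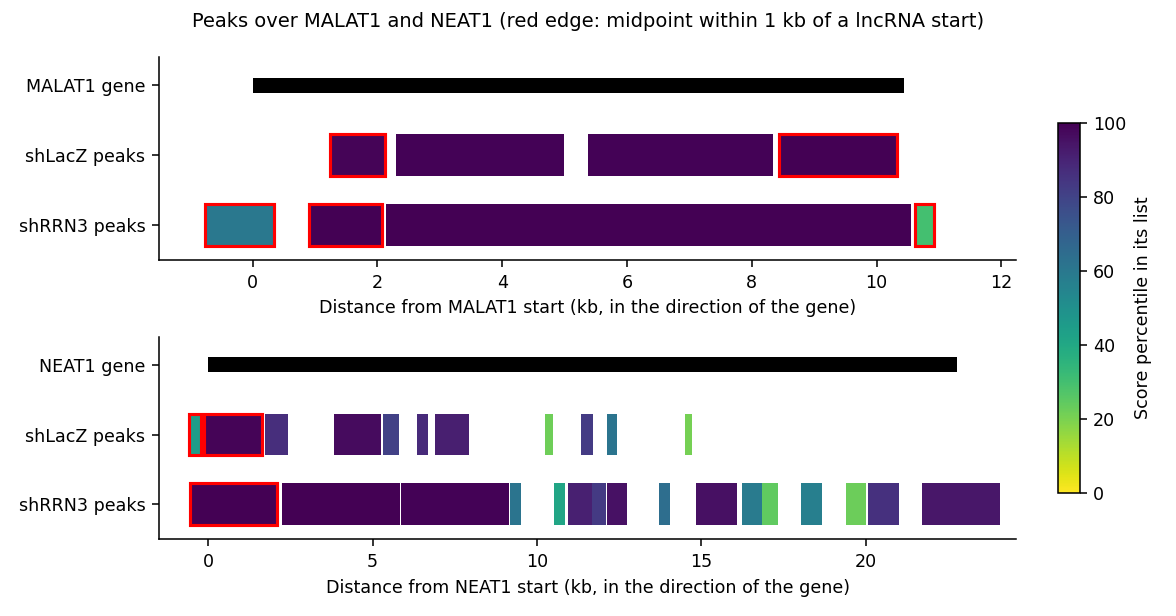
Peaks of both lists over MALAT1 and NEAT1, drawn as boxes by distance from the gene start in kb, with the gene as a black bar, the score percentile within the list as colour and members of the lncRNA start set edged in red. Peaks cover 80.7% of MALAT1 in shLacZ and 94.0% in shRRN3, and 30.0% and 75.9% of NEAT1.

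Members within another lncRNA were also found elsewhere. Of the outside members, 28 of 100 in shLacZ (28.0%) and 88 of 329 in shRRN3 (26.7%) had their midpoint within the span of a lncRNA gene other than the nearest one. Other peaks are those more than 2 kb from coding gene starts and more than 1 kb from lncRNA starts, and among other peaks outside protein-coding genes 32.2% and 31.7% lay in some lncRNA gene. Of lncRNAs longer than 5 kb with a member peak at the start, 15 of 80 in shLacZ (18.8%, interval 10.9% to 29.0%) and 90 of 304 in shRRN3 (29.6%, 24.5% to 35.1%) had another peak in the body. The share among lncRNAs without a start peak was not computed, so these shares have no background. The shRRN3 list also held 3.66 times as many peaks in all.

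Small RNA genes lay under several of the strongest members. The small nuclear RNAs of the spliceosome other than U6 and U6atac are made by Pol II from short genes of their own, and some of these genes have a lncRNA annotated over the same place. RNU5E-1, a gene of the U5 RNA, lay under the peak of ENSG00000285646, which scored 317 in shLacZ (percentile 97.3) and 692 in shRRN3 (percentile 99.5). RNU4ATAC, the gene of the U4atac RNA of the minor spliceosome, lay under the peak of CLASP1-AS1, which scored 298 (percentile 97.1) and 751 (percentile 99.6). RNU4ATAC is printed with 60 upstream bases to show that the transcribed small RNA fits within the peak, with the small RNA in capitals and the upstream bases in lower case.
RNU4ATAC (chr2:121530821-121531007, plus strand): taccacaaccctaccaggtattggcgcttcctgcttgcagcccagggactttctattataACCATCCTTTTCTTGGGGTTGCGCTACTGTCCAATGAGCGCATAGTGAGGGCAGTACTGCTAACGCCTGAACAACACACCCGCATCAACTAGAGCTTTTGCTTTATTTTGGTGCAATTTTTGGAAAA

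The shLacZ peak of CLASP1-AS1 spanned chr2:121530475-121531380 and held the whole small RNA gene of 127 bases. Other members covered SCARNA2, a guide RNA of Cajal bodies (scores 68.1 and 234), MIRLET7I, a let-7 microRNA gene (102.5 in shLacZ at LINC01465 and 257 in shRRN3 at ENSG00000275180), and SNORA50C and SNORD104 at their host SNHG25 (198 and 570). These scores depend on depth and are not comparable between the lists. Genes of the U1 RNA lay under the peaks of ENSG00000276216, ENSG00000287190 and ENSG00000261135 in both lists. The gene at ENSG00000261135, RNU1-1, is identical over its 164 bases to 5 other U1 genes, while RNVU1-14 and RNVU1-6 at ENSG00000276216 and ENSG00000287190 are identical to 0 others of the 30 U1 genes. Only full identity was looked for, so copies that differ by a few bases are not counted. The peak at RNU1-1 is therefore uncertain, and those at RNVU1-14 and RNVU1-6 may be so too, as near copies were not looked for. The treatment of reads that map to several places is not given in the sources used here.

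Among outside members, a small nuclear, small nucleolar, Cajal body or microRNA gene lay under 7 of 100 in shLacZ (7.0%) and 13 of 329 in shRRN3 (3.95%). Of other peaks outside protein-coding genes, 1.24% and 0.779% covered such a gene, a difference of 5.76 percentage points (interval 2.10 to 12.5) in shLacZ and 3.17 (1.51 to 5.87) in shRRN3. Inside members covered one in 2 of 71 and 4 of 278, and their differences from all other peaks were 1.81 points (−0.287 to 8.71) and 0.815 (−0.0826 to 3.02), with intervals that include 0. All 7 of the shLacZ members and 9 of the 13 shRRN3 members were overlapped between lists, against 82.0% and 23.1% of all outside members and 66.2% and 16.9% of all peaks.

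The small nucleolar RNA host genes and the microRNA host genes were also measured as lists. Of 19 eligible hosts of small nucleolar RNAs, whose introns are processed into guides of ribosomal RNA modification, 5 had a member peak in shLacZ and 11 in shRRN3, against 1.15% and 3.82% of all eligible starts. The 5 were SNHG7, SNHG8, SNHG25, SNHG29 and EPB41L4A-AS1, and all of them also had one in shRRN3. SNHG29 scored 238 (percentile 95.8) and 462 (percentile 99.0), and SNHG8 scored 109 (percentile 83.4) and 310 (percentile 97.8). SNHG11, SNHG16, SNHG17, SNHG21, SNHG26 and SNHG28 were found in shRRN3 alone, with percentiles between 16.1 for SNHG17 and 87.7 for SNHG28. The peaks of SNHG21 and SNHG28 lay nearer to another lncRNA start.

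Of 77 eligible microRNA hosts, 3 had a member peak in shLacZ and 12 in shRRN3, beside the same 1.15% and 3.82%. The 3 were MIR181A2HG, MIRLET7A1HG and MIR378D2HG, and the peaks of MIR378D2HG in the lists did not overlap. MIR181A2HG, host of a miR-181 cluster, lies inside NR6A1 on the opposite strand and had the highest score of any inside member in both lists, 961 in shLacZ and 1739 in shRRN3. Its midpoints lay 625 bp and 600 bp into the gene, 63229 bp and 63204 bp from the nearest coding transcript start. A coding transcript start here is the start of any transcript of a protein-coding gene, also of those annotated as non-coding. MIRLET7A1HG, host of a let-7 cluster, scored 187 (percentile 93.7) and 391 (percentile 98.6). MIR181A1HG, MIR9-1HG and MIR31HG were among those in shRRN3 alone, at percentiles of 87.8, 88.1 and 28.3.

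Ends of protein-coding genes lay beside other strong outside members. LINC01730, with scores of 396 (percentile 98.1) and 866 (percentile 99.7), had its midpoints 1570 bp and 1465 bp past the end of CDC25B, a phosphatase that drives entry into mitosis. ENSG00000238279 starts past the end of S100A6, a calcium-binding protein gene, and runs into it. Its shLacZ peak was 1139 bp wide with a score of 174 (percentile 93.0), and its shRRN3 peak was 4232 bp wide with a score of 1326, the highest outside score in that list. These midpoints were 1061 bp and 388 bp past the end of S100A6 and 2706 bp and 2033 bp from its start. The shRRN3 midpoint thus passed the 2 kb limit narrowly, and it lay 1780 bp from a further S100A6 transcript start. With its width, the shRRN3 peak (chr1:153532095-153536326) covered the whole of S100A6, its outer start included. It is therefore not a peak at a gene end alone. ENSG00000260368, 1466 bp past the end of YWHAZ, had a peak in shRRN3 alone with a score of 299.8.

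Across the outside members, 13 of 100 in shLacZ (13.0%, interval 7.11% to 21.2%) and 27 of 329 in shRRN3 (8.21%, 5.48% to 11.7%) lay within 2 kb past a coding gene end. The shares among other peaks outside protein-coding genes that lay within 2 kb of an end were 7.89% and 9.67%. The difference was 5.11 points in shLacZ (−0.408 to 13.2) and −1.46 in shRRN3 (−4.17 to 2.13), and both intervals include 0. Of inside members, 15.5% in shLacZ and 10.8% in shRRN3 lay within 2 kb of an end, against 8.72% and 8.76% of all other peaks. That background holds peaks inside and outside coding genes, and the share among other peaks inside coding genes was not computed. The differences from all other peaks were 6.77 points (0.0426 to 17.0) and 2.03 (−1.16 to 6.26). For all members they were 5.31 points (0.727 to 11.4) and 0.628 (−1.53 to 3.27), so the shLacZ intervals left out 0 and the shRRN3 intervals did not. With neither a small RNA gene nor a coding gene end nearby were 81.0% of the outside members in shLacZ and 88.4% in shRRN3. ENSG00000289221, one of them, had scores of 178 and 713 and peaks 1382 bp and 2479 bp wide.

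Inside protein-coding genes, most members lay beside the start of some transcript of a protein-coding gene, whether that transcript is annotated as coding or not. The rule kept members away from the outer start of each coding gene, but many coding genes have further transcripts that start inside them. Such a start lay within 1 kb of the midpoint for 41 of 71 inside members in shLacZ (57.7%) and 179 of 278 in shRRN3 (64.4%). For other peaks inside protein-coding genes, the shares were 22.3% and 20.7%. The differences were 35.4 points (interval 23.6 to 46.5) and 43.6 points (37.8 to 49.2). Counting only transcripts annotated as protein-coding, they were 31.1 points (19.7 to 42.8) and 41.5 points (35.6 to 47.3). The annotation gives a lower level too, as 19.2% of the 5583 eligible lncRNA starts inside coding genes had a coding transcript start within 1 kb.

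**Figure D2:**
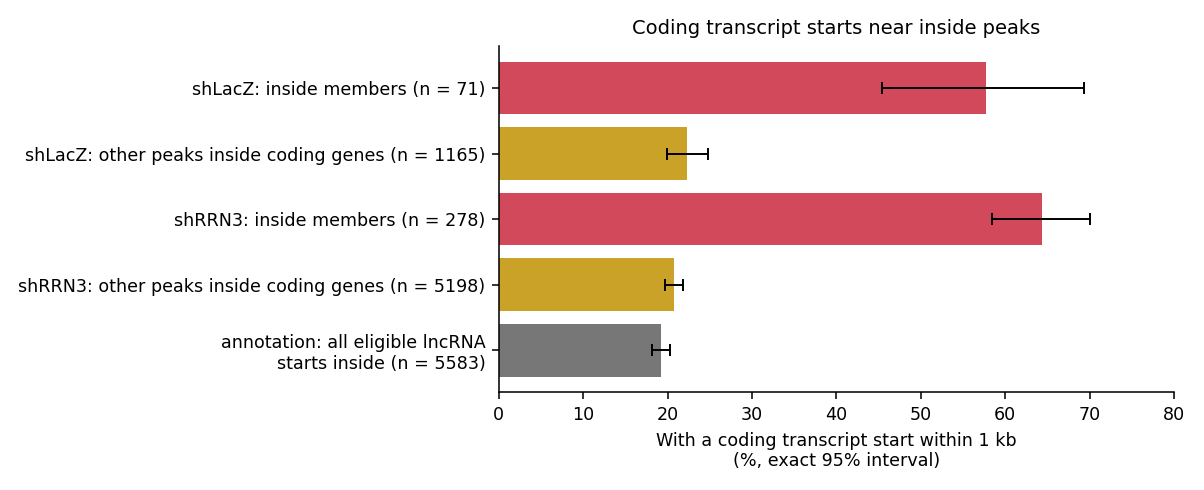
Share of inside members, of other peaks inside protein-coding genes, and of all eligible lncRNA starts inside protein-coding genes with a coding transcript start within 1 kb, in percent with exact 95% intervals. Starts of all transcripts of protein-coding genes are counted, also those annotated as non-coding. Inside members reach 57.7% in shLacZ and 64.4% in shRRN3, against 22.3% and 20.7% of other peaks and 19.2% of annotated starts.

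The named inside members show both kinds. ENSG00000258101 starts in TUBA1C, an alpha-tubulin gene, and its peaks scored 188 (percentile 93.7) and 489 (percentile 99.1) with a TUBA1C transcript start 136 bp and 191 bp away. ENSG00000288809 starts in EED, a subunit of Polycomb repressive complex 2, and its peaks scored 167 (percentile 92.5) and 442 (percentile 98.9) with an EED transcript start 9 bp and 101 bp away. CLASP1-AS1, which covers RNU4ATAC, also had a transcript start of its host CLASP1 within 183 bp and 316 bp. In contrast, ENSG00000290039, which scored 301 (percentile 97.2) and 749 (percentile 99.6), shares its strand with its host TEX14 and lay 32821 bp and 32939 bp from the nearest coding transcript start. Its shLacZ midpoint lay 1222 bp past the end of another coding gene, IGBP1C. ENSG00000287296, in the immediate early gene IER2, scored 198 and 426 and lay 1148 bp and 1239 bp from an IER2 transcript start, just past the 1 kb limit.

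Most inside lncRNAs ran against their hosts, as annotated inside lncRNAs do in general. The lncRNA lay on the strand opposite to every host for 61 of 71 inside members in shLacZ (85.9%) and 245 of 278 in shRRN3 (88.1%), against 73.8% of the 5583 eligible lncRNAs that start inside. Of the host genes, 8 of 64 in shLacZ (12.5%, interval 5.55% to 23.2%) and 77 of 246 in shRRN3 (31.3%, 25.6% to 37.5%) had a peak at their own outer start, where 7.58% and 23.8% of all protein-coding genes had one. Inside members were 41.5% of all members in shLacZ and 45.8% in shRRN3, a difference of 4.28 points (−4.18 to 12.4), where 36.2% of eligible lncRNA starts lie inside. This split depends on the annotation used: with the start of every transcript in place of the gene's outer start, for lncRNA and coding genes alike, 15.3% and 18.3% of members were inside.

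The midpoints of members lay on both sides of the annotated starts, and less tightly than peaks at coding starts. The midpoint lay within 0.25 kb of the lncRNA start for 84 of 171 members in shLacZ (49.1%) and 313 of 607 in shRRN3 (51.6%). Of the peaks within 1 kb of coding gene starts, called coding start peaks, 73.6% and 67.1% lay within 0.25 kb, so the difference was −24.5 points in shLacZ (−32.3 to −16.7) and −15.5 in shRRN3 (−19.7 to −11.3). The shares were 55.0% and 59.6% for outside members and 40.8% and 42.1% for inside members. Of the inside members in shRRN3, 27.0% lay in the 250 bp before the lncRNA start and 14.7% in the 250 bp after it, while 123 of 278 lay downstream at any distance (44.2%, interval 38.3% to 50.3%). In outside members these shares were 28.9% and 30.7%.

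**Figure D3:**
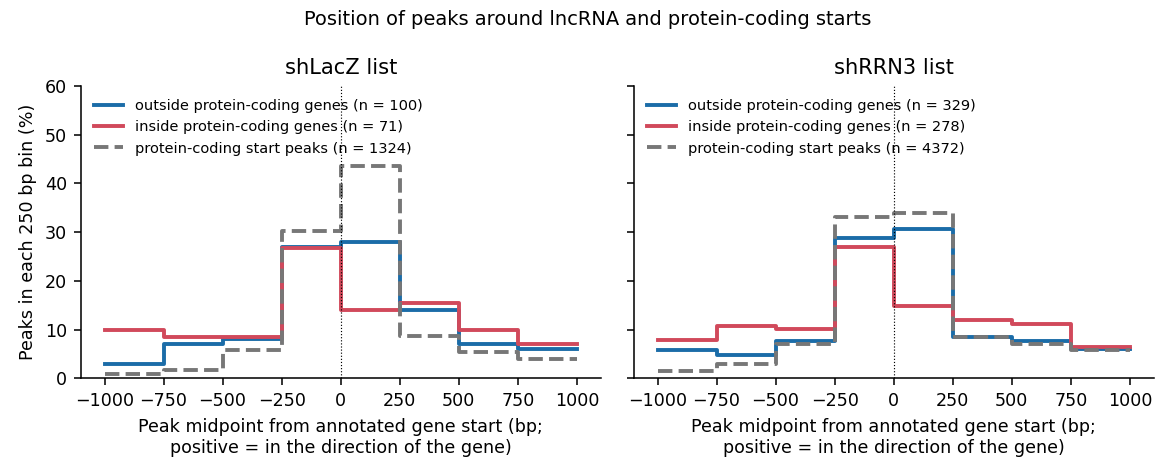
Distance of peak midpoints from the nearest annotated start in bp, positive in the direction of the gene, as the percent of peaks in each 250 bp bin, for outside members, inside members and peaks at protein-coding starts. Coding start peaks reach 43.5% just downstream of the start in shLacZ, and inside members fall from 27.0% just upstream to 14.7% just downstream in shRRN3.

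Overlap between the lists was more frequent at lncRNA starts than at peaks away from any start. Of the shLacZ members, 140 of 171 (81.9%, interval 75.3% to 87.3%) shared at least 1 bp with a shRRN3 peak, against 66.2% of all shLacZ peaks. Of the shRRN3 members, 127 of 607 (20.9%, 17.8% to 24.4%) shared at least 1 bp with a shLacZ peak, against 16.9% of all shRRN3 peaks. Coding start peaks were overlapped at 83.5% and 24.5%, and the difference was −1.59 points in shLacZ (−8.32 to 3.88) and −3.62 in shRRN3 (−6.93 to 0.0164), so both intervals include 0. For inside members alone in shRRN3 the difference was −6.20 points (−10.5 to −1.07), and with a window of 2 kb around lncRNA starts it was −6.55 for all members (−9.31 to −3.56), both below 0. Peaks away from coding and lncRNA starts were overlapped at 54.6% and 13.1%, which was lower by 27.2 points (20.5 to 32.7) and 7.83 points (4.70 to 11.3). Those peaks were also narrower, with median widths of 235 bp and 359 bp against 359 bp and 492 bp for members. A wider peak meets another more easily, and overlap was not adjusted for width. Outside and inside members were overlapped at 82.0% and 81.7% in shLacZ and at 23.1% and 18.3% in shRRN3.

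Higher-scoring members were shared more often. The share rose from 54.2% in the lowest score quintile of the shLacZ list to 96.0% in the highest, and from 7.69% to 50.3% in the shRRN3 list. Coding start peaks weighted to the score quintiles of the members were overlapped at 84.5% and 22.8%, and other peaks weighted in the same way at 61.1% and 16.5%. Where overlap required 50% of both peaks, 53.2% and 15.0% of members remained overlapped.

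**Figure D4:**
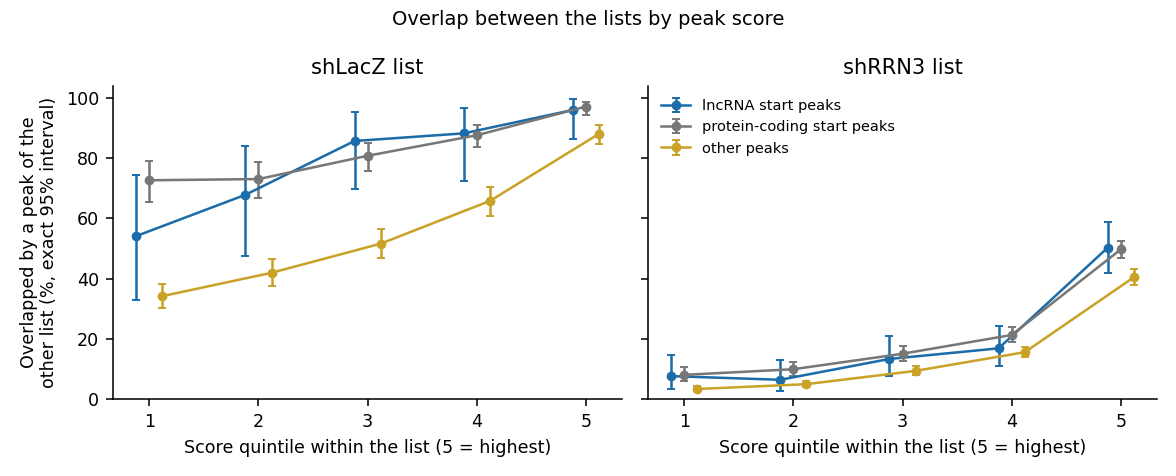
Share of peaks that overlap one in the opposite list, in percent with exact 95% intervals, by score quintile within each list for lncRNA start peaks, protein-coding start peaks and other peaks. Members run from 54.2% to 96.0% in shLacZ and from 7.69% to 50.3% in shRRN3 between the lowest and the highest quintile.

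Overlapping members were mostly wider in shRRN3. Each shLacZ peak was paired with the shRRN3 peak that shared most bases with it, so a wide shRRN3 peak could count more than once. The GAS5-AS1 peaks of 935, 392 and 310 bp in shLacZ, for example, all had the same partner of 1573 bp. Among 140 pairs, the shRRN3 peak was the wider in 130 (92.9%) and the median width was 1.56 times that in shLacZ, against 83.3% of pairs and 1.46 times at coding starts and 91.5% of pairs and 1.82 times among other peaks. Peaks split in shLacZ raise these values. The partner was itself a member in 134 pairs and was assigned to the same lncRNA in 129, and the median shift of the midpoint was 116 bp. The score percentile was higher in shRRN3 in 113 pairs, in 846 of 1105 pairs at coding starts and in 904 of 1253 pairs among other peaks. Member widths had a median of 359 bp in shLacZ and 492 bp in shRRN3, against 477 bp and 612 bp at coding starts.

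The strongest of the members without an overlap were taken from 31 in shLacZ and 480 in shRRN3, so their scores are not comparable between the lists. In shLacZ they were peaks at ENSG00000290854, SLC9A3-AS1, ENSG00000243655, THBS1-AS1 and LINC02631, with scores from 198 (percentile 94.4) to 78.4 (percentile 66.1). ENSG00000290854 also had a second shLacZ peak that was overlapped by a weak shRRN3 peak with a score of 50.8 (percentile 3.02). The THBS1-AS1 peak had a score of 83.3 and lay 88 bp from a transcript start of THBS1, a secreted inhibitor of vessel growth. In shRRN3 they were peaks at ENSG00000246331, ENSG00000260368, PURPL, VIM-AS1 and ENSG00000268129, with scores from 432 (percentile 98.9) to 260.0 (percentile 96.6).

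Coding transcript starts lay within 1 kb of 3 of these 5 shRRN3 members, and of 29.5% of all shRRN3 members. ENSG00000246331 lay 12 bp from a transcript start of CAPRIN2, VIM-AS1 lay 266 bp from one of VIM, which encodes the intermediate filament vimentin, and ENSG00000268129 lay 47 bp from one of U2SURP. PURPL, a lncRNA repressor of p53, scored 281 (percentile 97.2) and lay 96712 bp from the nearest coding transcript start. No shLacZ peak overlapped any of the 5. The absence of a peak from a list is not the absence of Pol II, since the depth of the libraries is unknown.

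Base composition set the members between coding starts and other peaks. The 200 bp around the midpoint had a GC share of at least 60% in 38.6% of members in shLacZ (interval 31.3% to 46.3%) and 42.3% in shRRN3 (38.4% to 46.4%). Coding start peaks reached this in 71.2% and 67.7%, and other peaks in 7.06% and 7.49%. The difference from coding start peaks was −32.6 points (−40.0 to −24.7) in shLacZ and −25.3 points (−29.4 to −21.1) in shRRN3. In shRRN3 the share was 67.0% of inside members beside a coding transcript start, 19.2% of inside members without one and 35.9% of outside members. Over all 15427 eligible lncRNA starts, 16.6% of windows around the start itself had such a GC share.

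The GC box word also set the members between coding start peaks and other peaks. It was in 32.2% and 32.5% of members, 54.5% and 52.3% of coding start peaks and 6.67% and 6.98% of other peaks, where 12.1% of eligible lncRNA starts and 46.9% of coding starts hold it. The AP-1 word, bound by the Fos and Jun factors, was in 23.0% of outside members in shLacZ (15.2% to 32.5%) and 20.4% in shRRN3 (16.1% to 25.1%). It was in 3.10% and 3.80% of coding start peaks and in 24.2% and 33.9% of other peaks, where 7.58% of eligible lncRNA starts hold it. Inside members held it in 4.23% and 9.35%. The TATA word was in 7.02% and 6.10% of members, below the 15.1% and 16.0% of other peaks. It was in 4.83% and 3.66% of coding start peaks, where 11.5% of eligible lncRNA starts hold it. Members differed from coding start peaks by 2.18 points in shLacZ (−1.04 to 7.14) and 2.44 in shRRN3 (0.689 to 4.69). The CCAAT word was in 25.7% and 26.5% of members, 21.2% and 25.5% of coding start peaks and 30.2% and 27.1% of other peaks, and the octamer word was in 0 members in shLacZ and 4 in shRRN3.

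**Figure D5:**
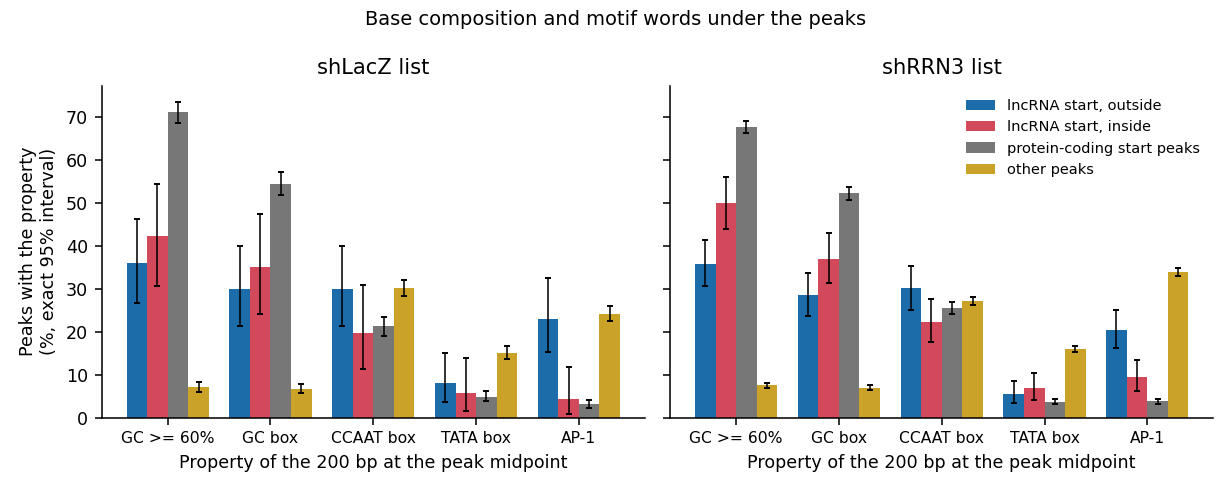
Share of peaks, in percent with exact 95% intervals, whose 200 bp around the midpoint have a GC share of at least 60% or hold a GC box, CCAAT, TATA or AP-1 word, for outside members, inside members, protein-coding start peaks and other peaks of each list. The AP-1 word is in 20.4% of outside members in shRRN3, between 3.80% of coding start peaks and 33.9% of other peaks.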

How the data were processed

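Pol II ChIP-seq of SK-OV-3 cells was analysed from 2 deposited peak lists, 1 per hairpin. The authors called peaks in each library alone with a program that names its peaks after MACS. The deposited score of each peak is the authors' own, on a scale not given in the sources used here, and was used only to rank peaks within a list. Aligner, threshold, duplicate handling and use of the input are not given in the sources used here. The submitters' processing notes give build hg38, and the lists name sequences by RefSeq accession. Lists held 4014 and 14363 peaks, of which 98 and 42 lay off chromosomes 1 to 22 and X and were left out.

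Starts were the outer bounds of GENCODE release 44 genes. Overlap needed 1 bp and was checked with bedtools 2.31.1. Shares have exact Clopper-Pearson intervals, differences of shares Newcombe intervals and ratios of counts exact conditional intervals, all at 95%. Members, gene lists and comparisons were chosen with earlier results of these data known. Named genes were the 5 with the highest-scoring member per list, inside and outside separately, the 5 per list without an overlap, and list genes with a member peak. Sequences leave out chromosome 8, and the window of 1 named start is not reported here. The small RNA gene printed, and those named beside them, were chosen after their values were seen. Code was tested on simulated peaks. Tables were handled in Python 3.11.15 with pandas 2.3.3 and numpy 2.4.6, intervals came from scipy 1.17.1, and plots were drawn with matplotlib 3.10.9.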

Additional observations from a re-analysis of the deposited data

How the results depend on the processing

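No paired analysis was possible because the Pol II comparison sets 1 library against 1. Of 95 alternative values, 70 stayed within the interval of the reported value, 25 moved outside it and 0 changed the sign of a difference whose interval left out 0. With a 2 kb window the interval of the overlap difference in shRRN3 left out 0, at −6.55 points (−9.31 to −3.56). Windows of 0.5 kb and 2 kb gave member shares of 3.14% and 5.52% in shLacZ and 2.97% and 5.98% in shRRN3, an inside share of 41.5% in shRRN3 at 0.5 kb, and GC differences of −18.4 and −34.2 points. Members more than 5 kb from coding starts were 3.67% of shRRN3 peaks. With every transcript start, members were 3.78% of shRRN3 peaks, inside shares were 15.3% and 18.3%, the overlap difference in shRRN3 was 1.27 points (−2.29 to 5.17) and the GC difference −32.2 points. With both lists limited to scores at or above the shLacZ median, member shares were 5.31% and 4.62%, and the overlap difference in shRRN3 was 0.546 points (−3.39 to 4.97). With the shRRN3 list reduced to the length of shLacZ, the member share was 5.16% in shRRN3, the ratio 1.18, the overlapped shares 57.9% and 41.6%, and the GC difference −20.4 points. Overlap of 50% of both peaks gave 53.2% and 15.0%, and counting as inside only lncRNAs that lie whole within a coding gene gave 33.3% and 34.1%. The coding transcript differences of inside members, tried under 3 settings chosen after seeing the data, ran from 31.1 to 36.9 points in shLacZ and 41.5 to 46.4 points in shRRN3. The causes were not tested. Depth is unknown and peaks below the authors' threshold are not listed, which limits every statement on a start found in 1 list alone.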
